A study of Homo sapiens with 12 samples.

Results

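MYC and 9 genes of its network, MYCL, MAX, MXD1, MXD3, MXD4, MNT, MGA, MLX and MLXIP, were followed across CO2 level and LPS in a human monocytic line. The 10 members are a list of gene symbols, and it was selected on measured values: an earlier analysis of these counts had shown MYC lower with LPS at both CO2 levels. All 10 were among the 16402 genes tested, out of 57500 gene identifiers in the tables. The cells were THP-1, an established line from a monocytic leukaemia, and every group, controls included, carried a lentiviral non-target shRNA. They were kept for 4 h in buffered medium at 5% CO2, the usual incubator level, or at 10% CO2, a level used to model hypercapnia. LPS, a bacterial cell wall component sensed by TLR4, was either absent or present at 2.5 µg/ml for the last 2 h. Each of the 4 combinations had 3 poly(A)-selected RNA-seq libraries. The labels do not state whether a group's libraries are separate cultures, so a p-value here reflects only how far these samples differ among themselves, and part of that may be technical. All come from 1 cell line.

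MYC is a basic helix-loop-helix leucine zipper transcription factor that binds DNA only when paired with MAX, at the E-box sequence and related sites, and it promotes ribosome production, nucleotide synthesis and cell growth. The MXD proteins, MNT and MGA also pair with MAX and occupy the same kind of site, but recruit corepressors, and a switch from MYC to MXD1 is a known feature of myeloid cells that stop dividing and differentiate. MLX is a second, parallel partner: it pairs with MLXIP (also called MondoA), which responds to sugar phosphates, and with some MXD proteins and MNT. The MYC transcript and protein both turn over quickly, so the level of the transcript can change within hours.

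The libraries held 17132910 to 22151327 counts each, so that 3 counts, taken as the floor of detection, correspond to 0.135 to 0.175 CPM, the usual count unit that is scaled to library size. The monocyte markers fixed for the line were all present, 10 of 10 at 1 CPM or more, and their summed level ran from 1456 to 1787 CPM at 5% CO2, from 1383 to 1484 at 10% CO2, from 1183 to 1386 at 5% CO2 with LPS and from 1048 to 1182 at 10% CO2 with LPS. Without CEBPA the sum was not lower with LPS. The other 9 summed to 860 to 987, 809 to 868, 1062 to 1200 and 958 to 1081 CPM in the same order of groups. That was higher with LPS at each CO2 level, but single markers moved both ways. The means of CD14, CD33, CSF1R, LYZ and ITGAM were lower with LPS at both CO2 levels (CSF1R 112 to 82.3 CPM at 5% CO2). Those of SPI1, FCGR1A, PTPRC and CD68 were higher (SPI1 302 to 460 CPM at 5% CO2). Markers of T cells (0 of 4), erythroid cells (0 of 2) and epithelial cells (0 of 3) did not reach 1 CPM, while 1 of 3 fibroblast markers (COL1A1, 1.76 CPM on average) did. The LPS labels matched the cytokine transcripts: TNF averaged 28.1 CPM at 5% CO2 and 1053 CPM with LPS, and 14.7 and 982 CPM at 10% CO2. IL1B averaged 19.2 and 3782 CPM, and 17.7 and 4073 CPM, and IL6 had 0 counts without LPS and averaged 1.48 and 2.14 CPM with it. The share of counts from mitochondrial genes was 1.57% ± 0.34 (SD, n = 3) at 5% CO2 and 2.66% ± 0.56 at 10% CO2, and 1.55% ± 0.25 and 3.11% ± 0.95 with LPS. This share therefore moved with CO2, and its part in the CO2 results was not tested.

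Promoter windows from RefSeq (GRCh38.p14) ran from 250 bases before to 50 bases after a start site. They were searched for 9 of the 10 members, in 12 windows. MYC was not part of the search, so nothing is said here of its promoter. The stretches shown lie upstream of the nearest exon of the count tables and are printed in lower case, 5′ to 3′ on the gene's strand, with the E-box CACGTG in capitals, since that hexamer is the site MYC, MXD and MNT share through MAX. Of the 9 members searched, they are those with an E-box, all antagonists or MLX, and MXD1, which rose most with LPS.
MXD4, chr4:2262295-2262359, minus strand: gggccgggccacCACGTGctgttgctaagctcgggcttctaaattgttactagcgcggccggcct
MNT, chr17:2401119-2401310, minus strand: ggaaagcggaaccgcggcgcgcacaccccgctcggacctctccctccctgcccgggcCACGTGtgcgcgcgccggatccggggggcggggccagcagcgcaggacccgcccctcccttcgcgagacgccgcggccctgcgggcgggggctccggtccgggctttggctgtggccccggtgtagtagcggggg
MLX, chr17:42566850-42567067, plus strand: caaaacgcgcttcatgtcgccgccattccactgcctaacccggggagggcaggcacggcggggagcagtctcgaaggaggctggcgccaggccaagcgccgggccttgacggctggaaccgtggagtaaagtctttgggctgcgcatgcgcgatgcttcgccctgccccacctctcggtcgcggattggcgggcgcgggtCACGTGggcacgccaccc
MXD1, chr2:69914859-69915040, plus strand: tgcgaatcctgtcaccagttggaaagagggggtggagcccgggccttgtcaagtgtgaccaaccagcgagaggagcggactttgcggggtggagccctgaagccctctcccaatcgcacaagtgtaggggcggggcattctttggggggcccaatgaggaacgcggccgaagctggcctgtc
Counted from the start site, the E-box begins at -238 in MXD4, at -193 in MNT and at -50 in MLX. The hexamer reads the same on both strands and occurs in 7.26% of the 35116 windows used. The NF-kappaB core GGANTTTCC, searched on both strands and present in 1.64% of windows, and the TATA box TATAAA, in 11.5%, were in 0 of the 12 windows of those 9 members. The MXD1 stretch lies inside the gene, ahead of the exon block that starts at 69915041. These matches describe letters in a window, not bound sites.

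Across the members, LPS went with the widest differences, and MYC and MXD1 moved furthest, in opposite directions. With LPS at 5% CO2, 7 of the 10 members passed the test at a Benjamini-Hochberg adjusted p under 0.05 (2 higher and 5 lower), where 24.9% of all genes tested did. At 10% CO2 it was 6 of 10 (1 higher and 5 lower), where 35.2% of all genes did. The rule that chose the members used the LPS comparisons, so these counts are given as a description and no p is given for them. The libraries with and without LPS did not overlap for 8 of 10 members at each CO2 level, where this held for 39.2% of all genes at 5% CO2 (20.4% lower with LPS) and 46.1% at 10% CO2 (24.2% lower). The median log2 change of the members was -0.30 and -0.34, beside -0.01 and -0.02 over all genes tested.

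CO2 moved fewer members. Without LPS, 0 of 10 were called by edgeR's quasi-likelihood test, where 1.46% of all genes were (0.665% lower), and 1 member (MXD4) had an unadjusted p under 0.05 and was called by DESeq2. Groups were apart for 4 of 10 members without LPS (MYCL, MAX and MLX higher at 10% CO2, MXD1 lower). There 20.7% of all genes were apart (10.5% higher and 10.2% lower). With LPS they were apart for 4 of 10 (MGA higher at 10% CO2, and MYC, MXD3 and MXD4 lower), where 31.4% of all genes were. With LPS, MYC and MXD4 were called, both lower at 10% CO2, where 8.75% of all genes were called in either direction. Averaged over LPS, MXD4 alone was called, where 16.8% of all genes were (8.69% lower). The interaction, which asks whether the LPS effect differed between CO2 levels, called 0 of 10 members in edgeR and 0 in DESeq2, where 0.0244% of all genes were called in edgeR, and 2 members (MYC and MXD4) had an unadjusted p under 0.05. The background moved with single libraries. Without LPS, the 240 genes called became 0 without replicate 2 and 511 without replicate 1 at 10% CO2, and 1, 4 and 139 without replicates 1, 2 and 3 at 5% CO2, and 143 without replicate 3 at 10% CO2 with LPS. With LPS, the 1435 genes called became 271 and 917 when treated replicate 2 or 3 at 10% CO2 was left out, and 414 and 458 when treated replicate 1 or 2 at 5% CO2 was. The comparisons share groups, so the counts are not independent of each other.

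**Figure D1:**
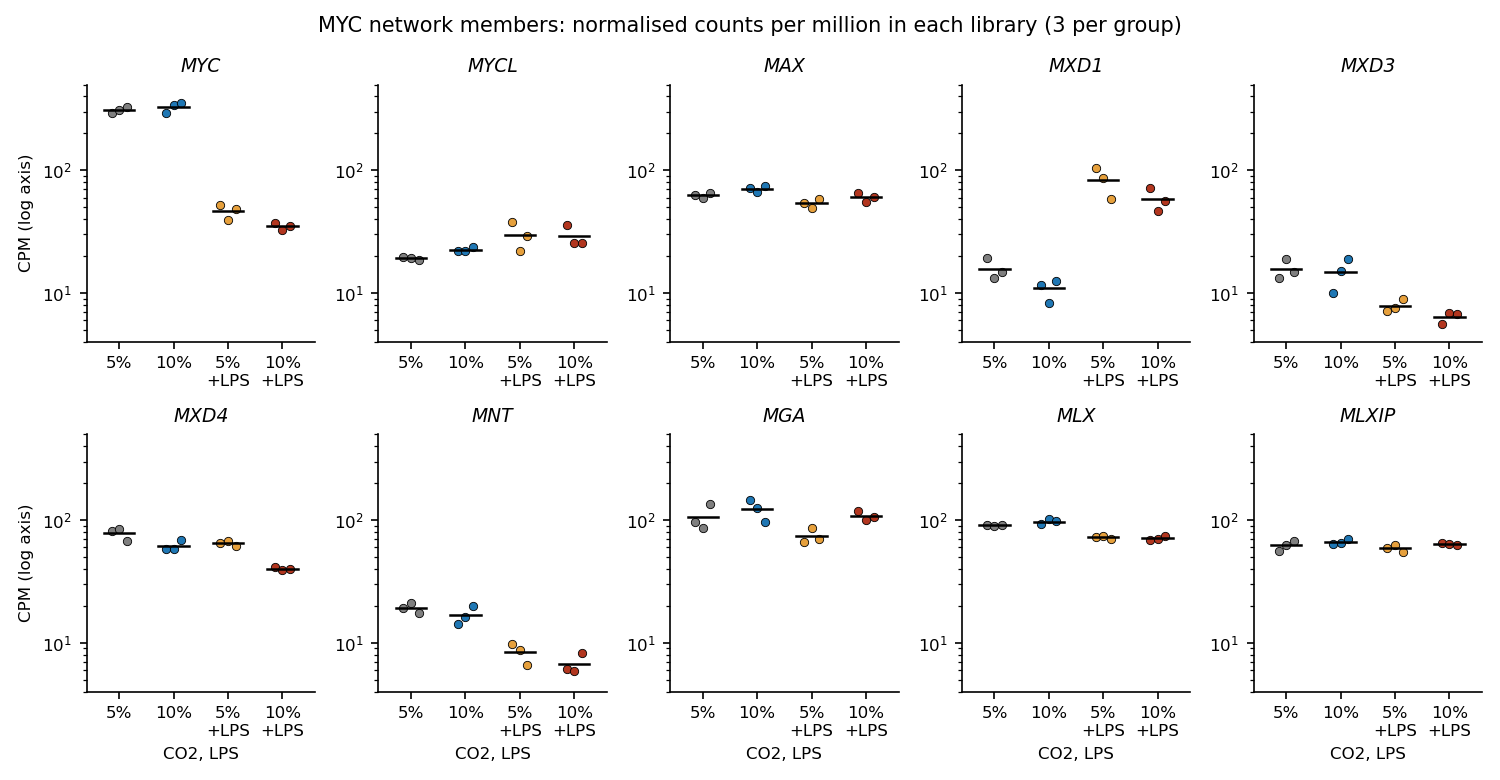
CPM of each member (log axis) in each of the 12 libraries, by CO2 level and LPS, with the group mean as a bar and 3 libraries per group. MYC lies between 294 and 353 CPM without LPS and between 32.8 and 52.3 CPM with it, while MXD1 lies between 8.36 and 19.2 CPM without LPS and between 46.3 and 105 CPM with it.

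MYC (ENSG00000136997, GRCh38 chromosome 8, 127735434 to 127741434, plus strand, 3 exon blocks) was the member that changed most. Its TMM-normalised level was 294, 311 and 329 CPM in the 3 libraries at 5% CO2 and 295, 337 and 353 CPM at 10% CO2. With LPS it was 52.3, 39.4 and 48.2 CPM at 5% CO2 and 37.0, 32.8 and 35.0 CPM at 10% CO2. Every library with LPS was below every library without it, and the 3 libraries at 10% CO2 with LPS were the lowest of the 12. The means were 311 ± 17.6 (SD, n = 3) and 46.7 ± 6.58 CPM at 5% CO2, a log2 change of -2.74 ± 0.11 (standard error from the fit), or 6.68-fold lower. At 10% CO2 they were 329 ± 30.3 and 34.9 ± 2.13 CPM, a log2 change of -3.23 ± 0.11, or 9.40-fold lower. Ordered from the lowest log2 change over all 16402 genes, MYC stood 17th at 5% CO2 and 16th at 10% CO2. Across the 19 alternative settings the log2 change stayed between -2.83 and -2.62 at 5% CO2 and between -3.31 and -3.16 at 10% CO2. In bulk RNA, fewer cells with the transcript and less transcript per cell cannot be told apart.

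Without LPS, the level of MYC at 10% CO2 could not be told from that at 5% CO2. The log2 difference was 0.08 ± 0.10 with an adjusted p of 0.725 in edgeR, and the 2 groups overlapped. With LPS, MYC was lower at 10% CO2 in 3 of 3 libraries with no overlap, by a log2 change of -0.42 ± 0.10 (adjusted p = 0.0195, edgeR), a value the earlier analysis had already shown. This call ended in 3 of 19 alternatives, each of which left out 1 library treated with LPS. Leaving out replicate 1 at 5% CO2 gave -0.33 (adjusted p = 0.116), leaving out replicate 2 at 10% CO2 gave -0.36 (adjusted p = 0.129), and leaving out replicate 3 at 10% CO2 gave -0.42 (adjusted p = 0.0547). Over all alternatives the adjusted p ran from 9.89e-04 to 0.129. The interaction was -0.49 ± 0.14 with an adjusted p of 0.426, so the CO2 difference with LPS was not shown to differ from that without it. Adjusted p values of the interaction ran from 0.0443, with no filter on low counts, to 0.989. Averaged over LPS the CO2 difference was -0.17 ± 0.07 (adjusted p = 0.108), and it was called in 1 of 18 alternatives (leaving out replicate 2 at 5% CO2 with LPS, -0.21, adjusted p = 0.0467).

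The other MYC-type activator on the list was MYCL (ENSG00000116990, chromosome 1, 39895426 to 39902256, minus strand), a paralogue that also pairs with MAX. It was measured at 19.5, 19.3 and 18.7 CPM at 5% CO2 and at 22.0, 22.0 and 23.7 CPM at 10% CO2. With LPS the libraries spread out, to 37.6, 22.1 and 29.2 CPM at 5% CO2 and 35.5, 25.5 and 25.8 CPM at 10% CO2. MYCL was thus the only activator of the pair that was higher with LPS, in all 3 libraries at each CO2 level, by log2 0.63 ± 0.16 (called) and 0.36 ± 0.16 (not called). The call at 5% CO2 ended when the highest library, replicate 1 with LPS, was left out, where the log2 change was 0.42. The values under LPS at 10% CO2 passed the threshold in 6 of 19 alternatives. Between CO2 levels MYCL did not pass the test: 0.23 ± 0.16 without LPS (adjusted p = 0.473, groups apart) and -0.03 ± 0.16 with LPS (adjusted p = 0.919). An antisense gene, MYCL-AS1, shares 4.46% of the exon bases of MYCL and averaged 2.58 CPM at 5% CO2.

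MYCN, the third MYC gene, had 0 counts in 10 of the 12 libraries, and 2 and 3 counts in 1 library of each LPS group, which is at or under the floor of 3 counts. It was not tested.

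MAX, the partner that both sides of the network need (ENSG00000125952, chromosome 14, 65006174 to 65102695, minus strand), varied little. It read 62.4, 59.1 and 65.9 CPM at 5% CO2, 71.6, 66.5 and 74.1 CPM at 10% CO2, 54.3, 49.1 and 58.0 CPM at 5% CO2 with LPS, and 65.4, 55.3 and 60.3 CPM at 10% CO2 with LPS. Its libraries with LPS lay below those without it at each CO2 level, by log2 -0.22 ± 0.09 and -0.23 ± 0.09, neither of them called. Those at 10% CO2 averaged higher than those at 5% CO2, by 0.18 ± 0.09 without LPS (adjusted p = 0.331) and 0.17 ± 0.09 with it (adjusted p = 0.284), and by 0.17 ± 0.07 averaged over LPS (adjusted p = 0.0804, called in 3 of 18 alternatives).

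Among the antagonists, MXD1 (ENSG00000059728, chromosome 2, 69897688 to 69942945, plus strand), the MXD protein best known from differentiating myeloid cells, was the 1 member of 5 that rose with LPS. Its libraries stood at 19.2, 13.2 and 14.9 CPM at 5% CO2 and at 11.7, 8.36 and 12.6 CPM at 10% CO2. With LPS they stood at 105, 86.7 and 58.0 CPM and at 72.1, 46.3 and 56.2 CPM. The lowest library with LPS was above the highest without it at both CO2 levels. The log2 change with LPS was 2.39 ± 0.25 (5.25-fold) at 5% CO2 and 2.41 ± 0.25 (5.33-fold) at 10% CO2, and the interaction was 0.02 ± 0.34 (adjusted p = 0.998), which changed sign in 7 of 18 alternatives.

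MXD1 was also the member whose mean differed most between CO2 levels at rest, but with a wide error. Without LPS it was lower at 10% CO2 by log2 -0.53 ± 0.26 (adjusted p = 0.316), with the groups apart, and with LPS by -0.51 ± 0.23 (adjusted p = 0.193), with the groups overlapping. Averaged over LPS the difference was -0.52 ± 0.17 (adjusted p = 0.0601). With LPS, the difference was called when treated replicate 3 at 5% CO2, the lowest library of its group, was left out (-0.72, adjusted p = 0.0286). Averaged over LPS, it was called in 6 of 18 alternatives (adjusted p from 0.00567 to 0.136 over all). Among them were those that left out replicate 3 at 5% CO2 with LPS (-0.62, adjusted p = 0.00670) or replicate 1 at 10% CO2 with LPS (-0.60, adjusted p = 0.0300).

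MXD4 (ENSG00000123933, chromosome 4, 2247432 to 2262294, minus strand), the most abundant of the 3 MXD members at rest, was the member with the firmest CO2 difference. It was measured at 81.6, 85.1 and 67.8 CPM at 5% CO2 and at 57.8, 58.3 and 68.3 CPM at 10% CO2. With LPS the values were 65.4, 67.3 and 61.8 CPM at 5% CO2 and 41.2, 39.0 and 40.0 CPM at 10% CO2. All 3 libraries at 10% CO2 with LPS were thus below the other 9. With LPS, the mean was 64.8 ± 2.78 CPM at 5% CO2 and 40.1 ± 1.12 CPM at 10% CO2, a log2 change of -0.69 ± 0.10 (adjusted p = 0.00101, edgeR), which was called in all 19 alternatives (-0.73 to -0.58, highest adjusted p 0.0129). Without LPS the log2 change was -0.35 ± 0.10 (adjusted p = 0.0774), and 1 library at 10% CO2 lay above 1 at 5% CO2. It was called in 5 of 19 alternatives, including those that left out replicate 3 at 5% CO2 (-0.44, adjusted p = 0.0422) or replicate 3 at 10% CO2 (-0.43, adjusted p = 0.0409), which are those 2 libraries. Averaged over LPS the log2 change was -0.52 ± 0.07 (adjusted p = 2.09e-04). The 2 CO2 differences were not shown to differ from each other (interaction -0.35 ± 0.14, adjusted p = 0.751).

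With LPS, MXD4 was lower with no overlap at both CO2 levels, by -0.27 ± 0.10 at 5% CO2 (not called) and -0.62 ± 0.10 at 10% CO2 (called). The value at 5% CO2 passed the threshold in 6 of 19 alternatives.

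MXD3 (ENSG00000213347, chromosome 5, 177301461 to 177312757, minus strand) and MNT (ENSG00000070444, chromosome 17, 2384060 to 2401118, minus strand) are antagonists that are expressed in dividing cells, MNT broadly so. MXD3 read 13.3, 19.0 and 14.8 CPM at 5% CO2, 10.1, 15.1 and 19.1 CPM at 10% CO2, 7.17, 7.55 and 8.95 CPM at 5% CO2 with LPS, and 5.62, 6.82 and 6.78 CPM at 10% CO2 with LPS. MNT read 19.2, 20.9 and 17.6 CPM, 14.2, 16.2 and 19.9 CPM, 9.77, 8.79 and 6.59 CPM, and 6.09, 5.86 and 8.21 CPM in the same order of groups. Both fell with LPS, with no overlap at either CO2 level. The log2 changes were -0.99 ± 0.20 and -1.20 ± 0.20 for MXD3, and -1.20 ± 0.16 and -1.31 ± 0.17 for MNT. These calls were kept in all 19 alternatives. Neither gene passed the test between CO2 levels: MXD3 differed by -0.09 ± 0.19 (adjusted p = 0.856) without LPS and -0.30 ± 0.21 (adjusted p = 0.399) with it, and MNT by -0.20 ± 0.16 (adjusted p = 0.547) and -0.31 ± 0.18 (adjusted p = 0.290). The value of MXD3 without LPS changed sign when replicate 2 at 5% CO2 (0.07) or replicate 1 at 10% CO2 (0.13) was left out.

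The level of MXD3 is less certain than that of the other members, because 18.0% of its exon bases are shared with RAB24 on the same strand and 22.5% with PRELID1 on the opposite strand, and the strand setting of the counting is unknown. RAB24 had log2 changes of -0.30 and -0.53 with LPS and PRELID1 of 0.25 and 0.21. The exon bases that MNT shares with an antisense gene (12.2%) lie in a gene with 0 counts in all libraries.

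MGA (ENSG00000174197, chromosome 15, 41621224 to 41773081, plus strand), a very large protein that pairs with MAX and belongs to a Polycomb-type repressor complex, varied widely between libraries at rest. Its libraries stood at 96.0, 86.3 and 135 CPM at 5% CO2, 145, 125 and 97.1 CPM at 10% CO2, 65.8, 87.0 and 70.8 CPM at 5% CO2 with LPS, and 118, 101 and 106 CPM at 10% CO2 with LPS. Of the 5 antagonists among the members, it alone had a higher mean at 10% CO2. With LPS that difference was 0.54 ± 0.17 (adjusted p = 0.0710), with no overlap, and it was called in 5 of 19 alternatives, among them those that left out replicate 3 at 5% CO2 (adjusted p = 0.0224) or at 10% CO2 (adjusted p = 0.0480), both without LPS. Without LPS it was 0.21 ± 0.17 (adjusted p = 0.564), and averaged over LPS 0.37 ± 0.12 (adjusted p = 0.0517, called in 7 of 18 alternatives). With LPS at 5% CO2 its log2 change was -0.50 ± 0.17, called but with overlapping groups. That call ended in 12 of 19 alternatives (-0.57 to -0.29), 8 of which left out 1 library: replicate 1 or 3 at 5% CO2 (-0.57 and -0.29), replicate 1 or 3 at 5% CO2 with LPS (-0.42 and -0.47), replicate 2 at 10% CO2 (-0.50) or any of those at 10% CO2 with LPS (-0.49, -0.49 and -0.50). At 10% CO2 the change with LPS was -0.18 ± 0.17.

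MLX (ENSG00000108788, chromosome 17, 42567068 to 42573239, plus strand) and MLXIP (ENSG00000175727, chromosome 12, 122078722 to 122147347, plus strand) form the parallel, nutrient-sensing branch. MLX was tight within groups, at 91.8, 90.0 and 91.6 CPM at 5% CO2, 92.9, 101 and 97.8 CPM at 10% CO2, 72.6, 74.4 and 69.9 CPM at 5% CO2 with LPS, and 69.0, 69.6 and 74.0 CPM at 10% CO2 with LPS. It fell with LPS at both CO2 levels, by -0.33 ± 0.08 and -0.46 ± 0.08, with no overlap, and those calls were kept in all 19 alternatives. MLXIP stayed between 55.0 and 70.1 CPM in all 12 libraries, and its log2 changes with LPS were -0.08 ± 0.09 and -0.06 ± 0.09, neither called. Neither gene passed the test between CO2 levels: MLX differed by 0.10 ± 0.08 (adjusted p = 0.551) and -0.03 ± 0.08 (adjusted p = 0.859), and MLXIP by 0.09 ± 0.09 (adjusted p = 0.630) and 0.11 ± 0.09 (adjusted p = 0.493). Of the exon bases of MLX, 18.1% are shared with PSMC3IP on the opposite strand, which had log2 changes of -0.21 and -0.31 with LPS.

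**Figure D2:**
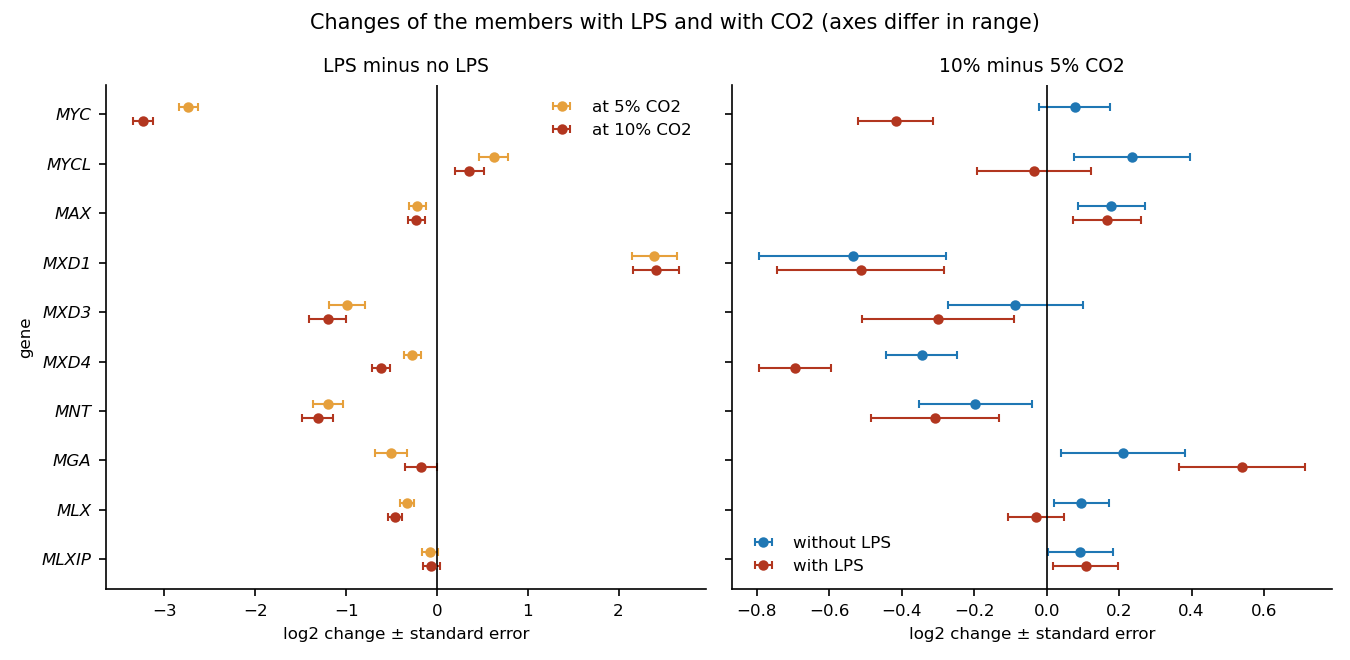
Log2 change of each member (points) with its standard error (bars) for LPS minus no LPS at each CO2 level (left) and for 10% minus 5% CO2 without and with LPS (right), on axes of different range. On the left MYC sits at -2.74 and -3.23 and MXD1 at 2.39 and 2.41, and on the right MXD4 sits at -0.35 and -0.69 and MGA at 0.21 and 0.54.

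The remaining genes of the network were MXI1 (also called MXD2), another MXD-type antagonist, and MLXIPL (ChREBP), the glucose-responsive relative of MLXIP. MXI1 averaged 58.2 ± 4.86, 67.1 ± 7.06, 48.3 ± 7.02 and 43.7 ± 6.96 CPM (SD, n = 3) at 5% CO2, 10% CO2 and the same levels with LPS. It was called lower with LPS at 10% CO2 (log2 -0.62 ± 0.13) and not at 5% CO2 (-0.27 ± 0.13). MLXIPL averaged 10.5 ± 2.38, 7.02 ± 0.64, 7.16 ± 1.96 and 4.08 ± 0.95 CPM. It was lower at 10% CO2 by -0.80 ± 0.22 with LPS (adjusted p = 0.0312, edgeR) and by -0.58 ± 0.20 without it (adjusted p = 0.142), and by -0.69 ± 0.15 averaged over LPS (adjusted p = 0.00500). The call with LPS ended when treated replicate 1 at 5% CO2 (-0.56), or treated replicate 2 or 3 at 10% CO2 (-0.61 and -0.89), was left out.

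To compare levels between genes, TPM values (counts per exon base, scaled to the same sum in each library) were computed from the counts and the exon lengths in the tables. That length sums all annotated exons of a gene, and among the members it ran from 3001 bases for MYC to 17651 for MGA. The lengths of the transcripts present were not measured, so levels and ratios between genes depend on this choice. On this per-length scale MYC was the most abundant member at rest by a wide margin. It averaged 407 ± 37.0 TPM (SD, n = 3) at 5% CO2 and 406 ± 40.3 TPM at 10% CO2. MLX came next, with 83.9 ± 4.16 and 84.8 ± 3.45 TPM, then MAX with 55.4 ± 5.27 and 59.2 ± 4.16 TPM and MXD4 with 43.3 ± 3.39 and 32.3 ± 3.58 TPM. The least abundant were MXD3, MXD1 and MNT, at 11.9, 9.74 and 8.63 TPM at 5% CO2, and neighbours among these overlapped between libraries. With LPS the order changed at the top. At 5% CO2 with LPS, MLX (57.3 ± 3.63 TPM), MYC (52.3 ± 6.33), MXD1 (44.3 ± 13.0) and MAX (40.9 ± 2.10) overlapped as neighbours. At 10% CO2 with LPS, MLX (51.4 ± 4.89 TPM) stood apart from MAX (42.1 ± 5.02), while MAX, MYC (36.0 ± 3.65) and MXD1 (28.4 ± 6.88) overlapped in turn. MNT was last with LPS, at 3.24 ± 0.68 and 2.39 ± 0.60 TPM.

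The balance between MYC and its antagonists was described as the ratio of the TPM of MYC to the summed TPM of MXD1, MXD3, MXD4, MNT and MGA in each library. The ratio was 3.95, 4.13 and 4.49 at 5% CO2 and 4.50, 5.24 and 5.09 at 10% CO2. With LPS it was 0.545, 0.430 and 0.658 at 5% CO2 and 0.481, 0.532 and 0.512 at 10% CO2. Every library with LPS had less MYC than antagonist transcript on this scale, and every library without it had more. The summed antagonists moved less than MYC: they averaged 97.2 ± 2.77 TPM at 5% CO2 and 97.9 ± 15.7 TPM at 5% CO2 with LPS, and 82.2 ± 4.57 and 71.0 ± 10.1 TPM at 10% CO2. With MXI1, the antagonist outside the 10 members, added to the sum, the ratio ran from 2.69 to 2.92 at 5% CO2, from 2.83 to 3.08 at 10% CO2, and from 0.307 to 0.468 and from 0.347 to 0.368 with LPS. With CPM in place of TPM, and without MXI1, the ratio averaged 1.33 and 1.46 without LPS and 0.198 and 0.159 with it. As the rule used MYC with LPS, these values carry no test.

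Within the 3 MXD members, the makeup also differed with LPS. MXD1 made up 15.0% ± 3.05 of the summed TPM of MXD1, MXD3 and MXD4 at 5% CO2 and 12.9% ± 2.42 at 10% CO2, and 54.2% ± 7.18 and 56.5% ± 5.30 with LPS. With MXI1 added to that sum, its share was 8.55% ± 1.97 and 6.20% ± 1.41 without LPS, and 37.7% ± 7.18 and 35.7% ± 6.82 with LPS. MXD4 went from 66.6% ± 1.53 and 65.8% ± 2.68 of the sum without MXI1 to 39.1% ± 5.26 and 35.6% ± 3.58. Set against the common partner, MYC stood at 7.37 ± 0.40 and 6.87 ± 0.72 times the TPM of MAX without LPS, and at 1.28 ± 0.13 and 0.856 ± 0.020 times with LPS. In the last group all 3 libraries were under 1. MYC was 60.2% and 60.9% of the summed TPM of the 10 members without LPS and 18.5% and 15.5% with LPS.

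**Figure D3:**
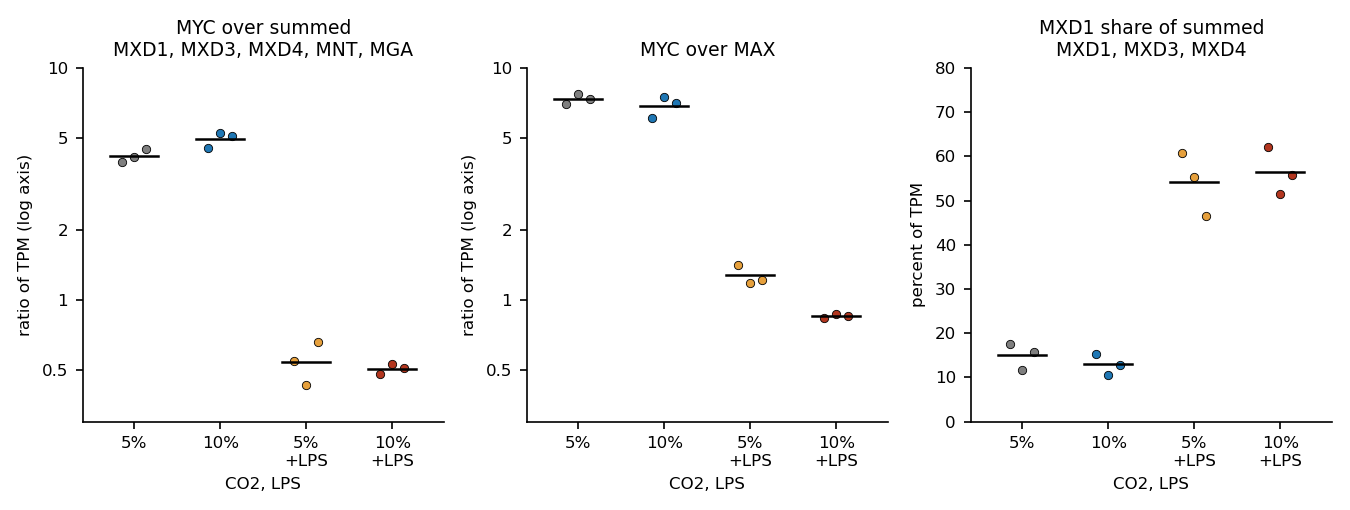
Ratio of the TPM of MYC to the summed TPM of 5 antagonists (left, log axis) and to MAX (middle, log axis), and the share of MXD1 in the summed TPM of MXD1, MXD3 and MXD4 (right, percent), for each library with the group mean as a bar. The left ratio lies between 3.95 and 5.24 without LPS and between 0.430 and 0.658 with it, and the share of MXD1 between 10.5% and 17.7% without LPS and between 46.5% and 62.1% with it.

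The genes whose pattern over the 12 libraries was closest to that of MYC were INKA1, NFE2, GFI1, B3GNT8 and THBD, by the root mean square difference in centred log2(CPM + 0.5) (0.27 to 0.33). The comparison ran over 10810 tested genes that averaged 5 CPM or more, and it is a description with no test. GFI1, a transcriptional repressor of myeloid precursors, averaged 341 and 402 CPM without LPS and 68.2 and 53.7 CPM with it at 5% and 10% CO2. NFE2, a factor of the erythroid and megakaryocytic lineages, averaged 21.9 and 15.9 CPM without LPS and 2.35 and 1.56 CPM with it. THBD, which encodes thrombomodulin, averaged 299 and 253 CPM without LPS and 55.3 and 38.3 CPM with it. The closest members were MNT, 119th in this order, and MXD3, 208th. The closest to MXD1 included KDM6B, LINC01686, SERPINB9 and NFKBID (0.21 to 0.27). KDM6B, a histone H3 lysine demethylase, averaged 30.3 and 25.1 CPM without LPS and 148 and 116 CPM with it. MYC stood 10798th of 10810 in the order of likeness to MXD1.

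Genes that MYC is known to activate moved in both directions with LPS. Of 44 tested targets on a list of ribosome biogenesis, nucleotide, chaperone and growth genes, 11 were called higher and 4 lower with LPS at 5% CO2, and 14 higher and 6 lower at 10% CO2, beside 24.9% and 35.2% of all genes called in either direction. The median log2 change was 0.15 and 0.11, where that of all genes was -0.01 and -0.02. TFAP4, itself a transcription factor and a direct MYC target, was the lowest, with log2 changes of -1.69 ± 0.16 (18.6 to 5.75 CPM) and -2.19 ± 0.16 (25.6 to 5.58 CPM). NOP2, an rRNA methyltransferase, was lower by -0.40 ± 0.09 and -0.63 ± 0.09. TFRC, the transferrin receptor, was higher by 0.56 ± 0.08 and 0.78 ± 0.08, and NOLC1, a nucleolar phosphoprotein, by 0.30 ± 0.07 at both levels. Over the alternatives, 6 to 22 targets were called higher at 5% CO2 and 10 to 21 at 10% CO2. At 5% CO2, 7 were higher without replicate 1 and 6 without replicate 3 of the untreated libraries, and 6 without replicate 3 of the treated ones, while 2 were lower without untreated replicate 3 or treated replicate 1. At 10% CO2, 3 were lower without untreated replicate 2.

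Targets of the same list were higher at 10% CO2, where MYC was not called without LPS and was lower with it. Without LPS, 7 of 44 were called, all higher, where 0.799% of all genes were called higher. With LPS, 14 were called, all higher, where 4.29% of all genes were, and 6 targets (BOP1, CAD, NOP56, ODC1, POLR1B and RRP9) were called in both. Averaged over LPS, 29 of 44 were called, all higher, where 8.06% of all genes were. The median log2 change of the list was 0.25 without LPS and 0.21 with it, against -0.01 over all genes in each. Ribosome biogenesis genes were already known from the earlier analysis to be higher with CO2, so the list is not independent evidence of its direction. RRP9, a component of the U3 snoRNP, was higher by 0.56 ± 0.10 without LPS (adjusted p = 0.0180, edgeR) and 0.45 ± 0.10 with it (adjusted p = 0.00947). CAD, the enzyme that starts pyrimidine synthesis, was higher by 0.50 ± 0.11 (adjusted p = 0.0244) and 0.48 ± 0.11 (adjusted p = 0.0103), and BOP1, a ribosome assembly factor, by 0.44 ± 0.10 (adjusted p = 0.0327) and 0.39 ± 0.10 (adjusted p = 0.0200). With LPS the smallest p values were those of HSPD1, the mitochondrial chaperonin (0.69 ± 0.12, adjusted p = 0.00347), TFRC (0.46 ± 0.08, adjusted p = 0.00429) and ODC1, the first enzyme of polyamine synthesis (0.49 ± 0.10, adjusted p = 0.00766).

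The counts of called targets moved with single libraries, and the median stayed in a narrow range. Without LPS, leaving out replicate 1 or 2 at 5% CO2 or replicate 2 at 10% CO2 left 0 targets called in edgeR, leaving out replicate 3 at 5% CO2 left 2, leaving out replicate 3 at 10% CO2 with LPS left 3, and leaving out replicate 1 at 10% CO2 gave 12. DESeq2 called 20, and 30 had an unadjusted p under 0.05. With LPS, 3 and 9 were called when treated replicate 2 or 1 at 10% CO2 was left out, and 4 and 5 when treated replicate 1 or 2 at 5% CO2 was, while DESeq2 called 19. The median of the list ran from 0.24 to 0.29 without LPS and from 0.19 to 0.25 with it over all alternatives.

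**Figure D4:**
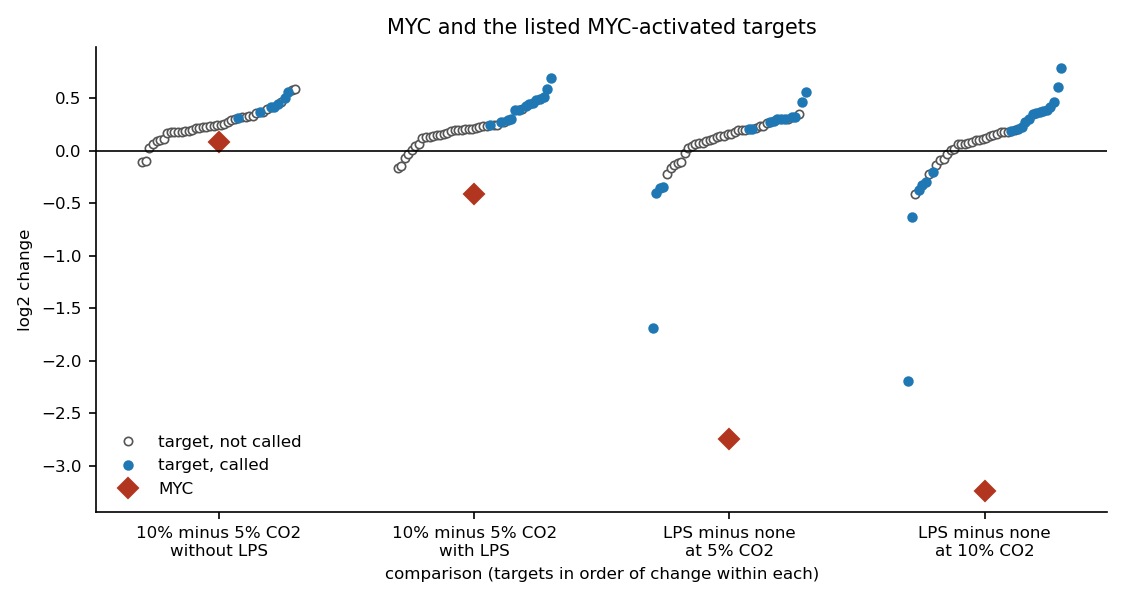
Log2 change of the 44 tested MYC-activated targets (circles, in order of change within each comparison, filled where the adjusted p was under 0.05) and of MYC (diamond) in 4 comparisons. With LPS the targets lie on both sides of 0, with TFAP4 lowest at -1.69 and -2.19, while MYC lies at -2.74 and -3.23. Between CO2 levels all called targets lie above 0, and MYC lies at 0.08 and -0.42.

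Genes known to be held down by MYC were called in both directions. Of 13 tested, 4 were called higher and 2 lower with LPS at 5% CO2, and 3 higher and 1 lower at 10% CO2, beside 24.9% and 35.2% of all genes called in either direction. BTG2, an antiproliferative gene that also responds to many stimuli, rose from 25.0 to 1185 CPM (log2 5.57 ± 0.14) and from 15.7 to 1203 CPM (6.26 ± 0.15). GADD45A, a stress-response gene, rose by 1.01 ± 0.13 and 0.98 ± 0.13. CEBPA, a myeloid factor, moved the other way, from 743 to 170 CPM (-2.13 ± 0.18) and from 606 to 92.3 CPM (-2.72 ± 0.19). It is also on the monocyte marker list, where the other 9 markers summed higher with LPS but moved in both directions. Their part in the results was not tested. Between CO2 levels, BTG2 was lower at 10% CO2 without LPS (-0.67 ± 0.13, adjusted p = 0.0211, edgeR), the 1 call of the list there, where 1.46% of all genes were called. That call ended when replicate 1 or 2 at 5% CO2 (-0.62 and -0.64), or replicate 2 or 3 at 10% CO2 (-0.51 and -0.66), was left out. With LPS, CEBPA (-0.88 ± 0.18, adjusted p = 0.0145) and CDKN1C (-0.76 ± 0.20, adjusted p = 0.0232) were lower, and CDKN1B (0.34 ± 0.10, adjusted p = 0.0381) and ITGB1 (0.28 ± 0.09, adjusted p = 0.0499) higher, beside 8.75% of all genes. Over the alternatives 0 to 2 were called higher and 0 to 4 lower. Leaving out treated replicate 1 at 5% CO2 or treated replicate 2 at 10% CO2 ended all 4 of these calls (CEBPA -0.82 and -0.85, CDKN1C -0.59 and -0.70, CDKN1B 0.35 and 0.28, ITGB1 0.26 and 0.30). CDKN1C was also lost without treated replicate 1 at 10% CO2 (-0.71). CDKN1B was kept in 12 of 19 alternatives (0.28 to 0.41) and lost without any treated library except replicate 1 at 10% CO2, and without untreated replicate 2 at 10% CO2. ITGB1 was kept in 7 of 19 (0.21 to 0.30) and lost without any treated library, any untreated library at 5% CO2, or untreated replicate 2 at 10% CO2.

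Targets of MLX with MLXIP or MLXIPL were split with LPS, and the same 4 of 12 were called at both CO2 levels, where 24.9% and 35.2% of all genes were. TXNIP, the inhibitor of glucose uptake that is the best known MLXIP target, fell from 1083 to 510 CPM (log2 -1.09 ± 0.10) and by -0.78 ± 0.10 at 10% CO2. ARRDC4, a relative of TXNIP and another MLXIP target, had changes of -0.84 ± 0.15 and -0.50 ± 0.14. ARRDC3 rose from 19.6 to 55.3 CPM and from 25.4 to 60.2 CPM (1.24 ± 0.12 at 10% CO2), and IRS2, an adaptor of the insulin receptor, by 0.40 ± 0.08 and 0.63 ± 0.08. Without LPS, CO2 called 0 of 12 in edgeR, 1 in DESeq2 and 3 at an unadjusted p under 0.05. With LPS it called 2, both higher at 10% CO2: HK2, a hexokinase that is also on the MYC list (0.51 ± 0.15, adjusted p = 0.0365, edgeR), and IRS2 (0.27 ± 0.08, adjusted p = 0.0408), beside 8.75% of all genes in either direction. Over the alternatives 0 to 3 were called higher. Both calls ended when any 1 of the 6 LPS-treated libraries was left out (HK2 0.42 to 0.59, highest adjusted p 0.116, and IRS2 0.22 to 0.31, highest adjusted p 0.162), and that of IRS2 also without untreated replicate 2 at 10% CO2 (0.27).

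Among transcripts of the proteins that MYC and the MXD factors work through, 1 of 15 cofactors and 1 of 15 corepressors were called with CO2 without LPS, beside 1.46% of all genes, and 2 of 15 of each with LPS, beside 8.75%. Of the cofactors, RUVBL1, an ATPase of the TIP60 and INO80 complexes, was higher at 10% CO2 without LPS (0.46 ± 0.08, adjusted p = 0.0180, edgeR) and with it (0.38 ± 0.08, adjusted p = 0.00905). CCNT1, the cyclin of P-TEFb, was higher at 10% CO2 when LPS was present (0.39 ± 0.12, adjusted p = 0.0428), a call kept in 12 of 19 alternatives (0.29 to 0.43). It ended without any treated library except replicate 3 at 5% CO2, and without untreated replicate 1 at 5% CO2 or 2 at 10% CO2. The call of RUVBL1 with LPS was kept in all 19. With LPS, 0 of the 15 were called at 5% CO2 in edgeR and in DESeq2, with 4 at an unadjusted p under 0.05. There edgeR called 24.9% of all genes. At 10% CO2, 3 were called higher and 1 lower, where 35.2% of all genes were called in either direction. The higher ones included CCNT1 (0.65 ± 0.12) and the MYC partner ZBTB17, also called MIZ1 (0.50 ± 0.11). Of the corepressors of the MXD factors, MNT and MGA, the scaffold SIN3A was lower at 10% CO2 without LPS (-0.42 ± 0.09, adjusted p = 0.0309) and with it (-0.42 ± 0.09, adjusted p = 0.00928), and the deacetylase HDAC2 was higher at 10% CO2 when LPS was present (0.37 ± 0.08, adjusted p = 0.0133). Without LPS, the calls of RUVBL1 and SIN3A ended when replicate 1 or 2 at 5% CO2 or replicate 2 at 10% CO2 was left out (0.45, 0.45 and 0.41 for RUVBL1, and -0.43, -0.37 and -0.38 for SIN3A). With LPS, treated replicate 2 at 10% CO2 decided the calls of SIN3A (-0.33 without it) and HDAC2 (0.34), as did treated replicate 2 at 5% CO2 for SIN3A (-0.34) and treated replicate 1 at 5% CO2 for HDAC2 (0.30). With LPS, SIN3A was higher by 0.34 ± 0.09 at both CO2 levels, and PCGF6, a partner of MGA, was lower by -0.45 ± 0.11 and -0.38 ± 0.11. SAP18, a subunit of the SIN3 complex, was higher by 0.21 ± 0.07 and 0.27 ± 0.07 (kept in 6 and 16 of 19 alternatives), and SAP30, another subunit, was lower with LPS at 10% CO2 by -0.73 ± 0.13.

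Regulators of the stability of the MYC protein were measured only as transcripts. Of 15, 1 was called higher and 3 lower with LPS at 5% CO2, and 3 higher and 3 lower at 10% CO2. Over all genes, 24.9% and 35.2% were called in either direction. SKP2, an F-box protein of a ubiquitin ligase, fell with LPS by -0.68 ± 0.13 and -0.81 ± 0.13. AURKA, a mitotic kinase known to shield MYC family proteins, fell by -0.61 ± 0.11 and -0.79 ± 0.11. FBXO32, another F-box protein, fell by -1.13 ± 0.21 and -0.96 ± 0.24. It was also lower at 10% CO2 without LPS (-0.92 ± 0.21, adjusted p = 0.0340, edgeR), the 1 call of the list there, where 1.46% of all genes were called. That call ended without any library at 5% CO2 (-0.95, -0.82 and -0.97) and without replicate 2 or 3 at 10% CO2 (-0.87 for both). FBXW7, the F-box protein that recognises phosphorylated MYC, was higher with LPS at 10% CO2 (0.46 ± 0.10, called). Between CO2 levels with LPS, 0 of the 15 were called in edgeR, where 8.75% of all genes were. DESeq2 called 1 higher and 1 lower, and 5 had an unadjusted p under 0.05.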

How the data were processed

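The authors deposited a featureCounts table of raw counts for every library, by Ensembl gene, with exon coordinates and a summed exon length. The submitters' processing notes name Trimmomatic 0.36 for trimming, STAR 2.5.2b, featureCounts (Subread 1.5.2) and GRCh38. For strand setting, annotation release and multiply mapped reads, the sources used here give nothing, so reads of overlapping genes could not be assigned with certainty. The length column of the deposited tables served as another measurement, to compute TPM.

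All pairs of replicates differed by more than sampling noise, with chi-square statistics of 8.05 to 26.2 times their degrees of freedom, and all 12 libraries were kept. Symbols from a reference table covered 71.1% of identifiers and 99.1% of counts. The data were fitted with edgeR 4.0.16 in R 4.3.3 (filterByExpr, minimum count 10, TMM, robust quasi-likelihood F test, 1 model with 4 group means over 12 libraries, Benjamini-Hochberg over 16402 genes, called under 0.05). The common biological coefficient of variation was 10.7%. Standard errors are the log2 change divided by the square root of F. CPM and TPM are means ± SD. Alternatives were other size factors (RLE), no filter on low counts, DESeq2 1.42.0, only the compared groups, each library left out, the replicate number as a block, and an exon GC correction, alone and with the block. The GC settings, and MXI1 added to the sums of antagonists, were chosen after seeing the data.

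The members and gene lists were chosen with earlier results of these data known. Named were all members, the other network genes, up to 3 called genes with the smallest p of each list and pairwise comparison (with their values in the other comparisons), TNF, IL1B and IL6, and the 5 genes nearest to MYC and to MXD1 in pattern. NOP56, POLR1B, ITGB1, SREBF2 and TFEC fall outside this rule and were named after their values were seen. A few genes that the rule or the marker lists cover are not reported here.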

Additional observations from a re-analysis of the deposited data

How the results depend on the processing

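Of the members' values under alternative settings, 1025 kept their direction and side of the threshold, 49 passed it newly, 16 lost it and 30 changed sign, and the cause was not tested. Those that changed sign were all uncalled. With a library left out, MXD3 for CO2 without LPS ran from -0.32 to 0.13, MYCL for CO2 with LPS from -0.20 to 0.17, and the interaction from -0.0813 to 0.0452 for MAX, from -0.18 to 0.22 for MXD1, from -0.43 to 0.0190 for MXD3, from -0.29 to 0.0321 for MNT and from -0.0501 to 0.0795 for MLXIP. With the exon GC correction, MYCL for CO2 with LPS was 0.0459, MLX for CO2 with LPS 0.0267, MLXIP for LPS at 10% CO2 0.0320 and the interaction of MXD1 -0.0516. With the replicate block and GC correction these were 0.0506, 0.0269, 0.0318 and -0.0612. With no filter on low counts the interaction was -0.00907 for MXD1 and -0.0208 for MLXIP.

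Replicate numbers were not taken to pair the samples, since not every same-numbered pair correlated over 0.1: correlations ran from -0.353 to 0.579, 12 of 18 pairs were over 0.1 (9 of 36 with other numbers), all 6 pairs of replicate 1 among them (0.250 to 0.579), and 5 of 12 libraries correlated best with their own number. The replicate block moved the called genes for CO2 without LPS from 240 to 699 and for the interaction from 4 to 11, and, with the GC correction, to 2021 and 31, to 2971 from 1435 for CO2 with LPS, and to 4642 from 2748 for CO2 averaged over LPS. Among the members' CO2 differences, the block alone added calls of MXD1 for CO2 with LPS (-0.52, adjusted p = 0.0352) and averaged over LPS (-0.52, adjusted p = 0.00567), and of MAX averaged over LPS (0.17, adjusted p = 0.0334). For CO2 without LPS the count was also 848 with the GC correction, 696 in DESeq2, 572 with no filter and 71 with only the compared groups. For the interaction it was 53 in DESeq2, 108 with no filter and 1 with RLE. With a library left out, the counts ran from 0 to 511 for CO2 without LPS (lowest without replicate 2 at 10% CO2), from 271 to 1804 for CO2 with LPS (lowest without LPS-treated replicate 2 at 10% CO2), from 1 to 37 for the interaction and from 1664 (without replicate 2 at 10% CO2) to 3005 for CO2 averaged over LPS. The counts for LPS stayed within 1.5 times. Depth limits MYCN, at or under 3 counts per library.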

Other observations

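Other basic helix-loop-helix zipper factors, which bind E-boxes without MAX, also differed between groups. Of 9 tested, 4 were called with LPS at 5% CO2, where 24.9% of all genes were, and 5 at 10% CO2, where 35.2% were. USF1 fell by a log2 change of -0.73 ± 0.10 at 5% CO2 and, from 67.1 to 37.7 CPM, of -0.83 ± 0.10 at 10% CO2, and TFAP4 fell as given for the MYC targets. TFE3, a regulator of lysosomal genes, rose by 0.74 ± 0.12 and 0.71 ± 0.12, and SREBF2, the main activator of cholesterol synthesis genes, by 0.23 ± 0.08 and 0.27 ± 0.08 (kept in 13 and 17 of 19 alternatives). TFEC was called at 10% CO2 (0.52 ± 0.12) and not at 5% CO2 (0.28 ± 0.12). Between CO2 levels with LPS, SREBF1, an activator of fatty acid synthesis genes, was lower at 10% CO2, at 117 and 75.6 CPM (-0.62 ± 0.14, adjusted p = 0.0155, edgeR), and USF1 by -0.41 ± 0.10 (adjusted p = 0.0170), where 4.46% of all genes were called lower. The call of SREBF1 ended without treated replicate 1 or 2 at 5% CO2 (-0.61 and -0.56) or treated replicate 2 at 10% CO2 (-0.51), and that of USF1 without treated replicate 2 at 5% CO2 (-0.35) or treated replicate 1 or 2 at 10% CO2 (-0.37 for both).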
